A study of Homo sapiens with 2 samples.

Results

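The regions described here are stretches of DNA beside transcription start sites (TSSs) with more SMARCA4 signal in an EZH2-inhibitor-resistant (EIR) clone than in parental TOV21G cells. They are the regions of the deposited EIR-higher list, on chromosomes 1 to 22 and X except 10, whose nearest edge lay more than 1 kb and at most 5 kb from the nearest TSS of any annotated transcript. The rule was met by 371 regions. They came from 2104 EIR-higher regions, 1639 of them on the chromosomes used, and from 12896 regions in the lists of both directions. The members were chosen by the measured difference between the libraries, so their tags and folds are a description and were not tested.

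TOV21G is a line of ovarian clear cell carcinoma in which ARID1A is mutated. The EIR line is 1 clone, clone 3, picked after stepwise exposure of TOV21G cells to the EZH2 inhibitor GSK126, from 5 to 20 µM. In both lines SMARCA4, also called BRG1, carried a FLAG epitope at its endogenous locus, and single tagged colonies had been expanded. Each line gave 1 ChIP-seq library, precipitated with a FLAG antibody from doubly crosslinked chromatin cut with MNase, so nothing here measures the spread between clones or cultures. In ChIP-seq the number of aligned reads, or tags, in a region rises with the amount of DNA bound by the precipitated protein. The parental library held 25.6 M tags and the EIR library 35.0 M, and the authors scaled the EIR tags down to the parental total, which made 1 EIR tag worth 0.733. More DNA copies of a region, more cells with the protein bound and more protein bound per cell cannot be told apart in such tags. The lists hold no expression, so cell type markers were not examined here.

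SMARCA4 is one of the alternative ATPases of SWI/SNF complexes, which slide or evict nucleosomes and so open promoters and enhancers, and ARID1A is a subunit of the BAF form of these complexes. EZH2 is the methyltransferase of Polycomb repressive complex 2, which SWI/SNF opposes at many genes. The stretch a few kilobases on either side of a TSS lies outside the core promoter and often holds proximal enhancers, first introns and additional start sites.

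The regions were short and mostly unlike a promoter in sequence. The following 240-base stretches from the plus strand of GRCh37, which has the coordinates of hg19, show the members without any parental tag, the member with the most tags, and the flanking region at RXRA together with the end of the parental-higher region at the same start site. The RXRA start region is shown only for its last bases, which lie in intron 1 as its flanking region does. CpG dinucleotides are in capitals.
FADS2, chr11:61623426-61623665: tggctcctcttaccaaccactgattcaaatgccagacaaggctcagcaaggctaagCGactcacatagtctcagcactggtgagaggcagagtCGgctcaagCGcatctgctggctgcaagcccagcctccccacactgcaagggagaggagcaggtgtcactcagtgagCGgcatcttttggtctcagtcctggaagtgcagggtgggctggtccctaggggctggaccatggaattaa
SCUBE1, chr22:43741612-43741851: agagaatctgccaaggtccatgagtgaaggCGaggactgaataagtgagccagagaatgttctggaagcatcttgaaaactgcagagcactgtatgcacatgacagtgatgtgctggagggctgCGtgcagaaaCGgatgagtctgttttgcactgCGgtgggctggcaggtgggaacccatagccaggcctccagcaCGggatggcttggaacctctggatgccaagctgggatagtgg
ENSG00000271904, chr5:87798559-87798798: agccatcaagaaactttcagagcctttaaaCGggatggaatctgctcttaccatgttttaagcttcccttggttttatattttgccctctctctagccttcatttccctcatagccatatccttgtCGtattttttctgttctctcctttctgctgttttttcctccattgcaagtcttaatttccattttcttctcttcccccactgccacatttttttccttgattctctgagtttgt
NKX1-1, chr4:1404297-1404536: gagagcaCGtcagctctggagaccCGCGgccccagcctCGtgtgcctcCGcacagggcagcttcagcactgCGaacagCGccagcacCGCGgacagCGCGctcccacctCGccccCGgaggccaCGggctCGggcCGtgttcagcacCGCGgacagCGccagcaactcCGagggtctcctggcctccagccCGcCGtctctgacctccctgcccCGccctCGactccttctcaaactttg
RXRA, EIR-higher flanking region, chr9:137219628-137219867: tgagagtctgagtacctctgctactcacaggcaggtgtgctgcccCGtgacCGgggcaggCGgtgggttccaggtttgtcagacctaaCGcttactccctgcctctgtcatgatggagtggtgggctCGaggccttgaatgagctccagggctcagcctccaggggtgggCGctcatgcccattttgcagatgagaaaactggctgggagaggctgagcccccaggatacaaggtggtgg
RXRA, parental-higher region at the TSS, chr9:137219040-137219279: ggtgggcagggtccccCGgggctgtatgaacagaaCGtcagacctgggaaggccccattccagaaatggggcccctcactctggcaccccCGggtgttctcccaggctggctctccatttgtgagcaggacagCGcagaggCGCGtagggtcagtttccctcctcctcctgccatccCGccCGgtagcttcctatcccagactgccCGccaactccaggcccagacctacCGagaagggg
The stretches of the FADS2, SCUBE1 and ENSG00000271904 regions held 4, 5 and 2 CpGs, and that of the NKX1-1 region held 24. At RXRA the flanking stretch held 6 CpGs at 60.4% GC and the stretch of the start region 10 at 65% GC. Over the whole RXRA regions the GC content was 59.9% in the flank and 78.7% at the start. The NKX1-1 stretch had 70.8% GC and its whole region 59.4%. The FADS2, ENSG00000271904 and SCUBE1 stretches had a GC content of 57.1%, 39.6% and 54.6%.

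Most members were just strong enough to be listed. They held a median of 17.6 scaled EIR tags, from 14.7 to 225.8, and 285 of the 371 held under 20. Their parental tags had a median of 5, from 0 to 139. Over the 201 kb they cover, this amounted to 38.65 scaled EIR tags per kb in the clone and 11.5 tags per kb in parental cells. The fold given in the list had a median of 3.52, quartiles of 3.23 and 4.40, and a range of 1.62 to 36.65. A fold of at least 4 was reached by 138 members, or 37.2%, where 36.4% of the whole EIR-higher list did so, a share close to that background. Exactly 500 bp, the smallest region the caller reports, was the length of 331 members. The median fold was 3.37 for the 442 EIR-higher regions within 1 kb of a TSS and 3.67 for the 826 beyond 5 kb.

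All of these folds rest on scaling by total tags. With the EIR library scaled 1.5 times lower and the same Poisson limit, 36 of the regions would have been kept. The paper reports lower SMARCA4 mRNA and protein in EIR cells and less SMARCA4 binding there in general. Each library was the control of the other, so no unprecipitated library entered the lists. How much of the members' tags comes from bound SMARCA4 and how much from background DNA was not tested.

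**Figure D1:**
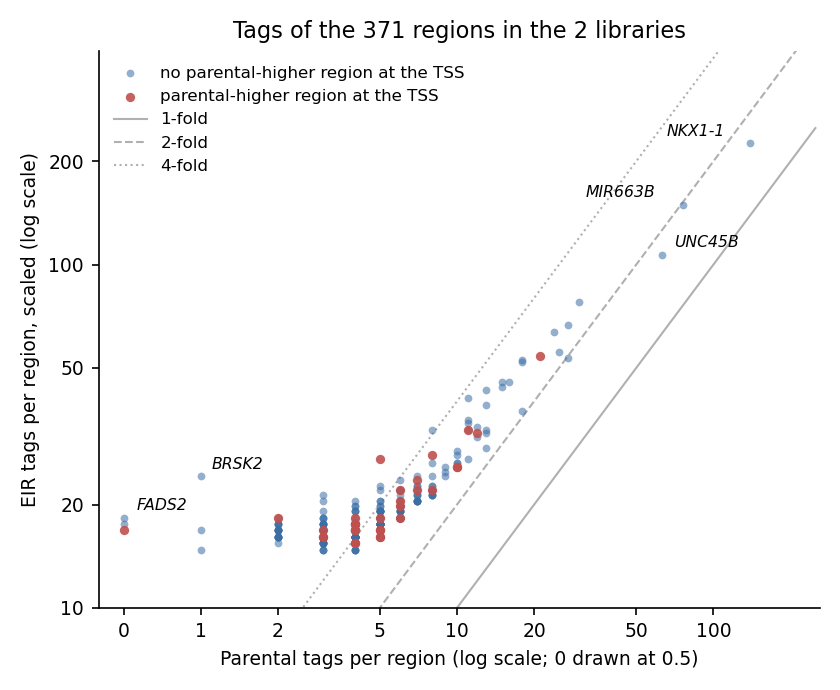
Each point is 1 of the 371 regions, with its parental tags on the x axis and its scaled EIR tags on the y axis, both logarithmic, and lines for folds of 1, 2 and 4. Most points crowd between 14.7 and 20 EIR tags, and the few regions with more than 100 EIR tags lie near or under the 2-fold line.

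The plot of tags by library shows that the largest folds and the largest signals belonged to different regions. The 16 members with at least 40 scaled EIR tags had a median fold of 2.62, from 1.62 to 3.73, against 3.67 for the other 355, and a median length of 1016 bp. The limit on the Poisson p-value admits a region with many tags at a small fold and a region with few tags only at a large one.

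The 3 members without a parental tag lay at FADS2, SCUBE1 and ENSG00000271904. FADS2 encodes the delta-6 desaturase of polyunsaturated fatty acid synthesis, and its region, in intron 5, lay 1637 bp downstream of the start of a retained-intron transcript. It held 18.3 scaled EIR tags, which is 6.1-fold the 3 parental tags that a count of 0 allows. The region upstream of SCUBE1, which encodes a secreted EGF-like protein, held 16.9 scaled tags, or 5.63-fold on the same floor. The region 3915 bp upstream of the uncharacterised lncRNA gene ENSG00000271904 held 17.6, or 5.87-fold on that floor. The floor limits the parental count only and takes the EIR count as exact. With counting error in both libraries, the exact 95% intervals of the fold began at 4.61 for FADS2, 4.21 for SCUBE1 and 4.41 for ENSG00000271904. They had no upper end.

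Next in fold came a region in intron 12 of BRSK2, a kinase of neurons and endocrine cells related to AMPK, with 24.2 scaled EIR tags and 1 parental tag. The ratio was 24.19, with an exact Clopper-Pearson 95% interval of 4.05 to 984, which covers counting error only and ignores that the region was chosen for its difference. A region upstream of KCNJ12, which encodes the inward rectifier channel Kir2.2, held 14.7 scaled tags against 1 (14.66-fold, 2.34 to 608). The members at PDE4DIP, a centrosome and Golgi scaffold, and at TMEM121B each held 18.3 against 2 tags (9.16-fold, 2.28 to 79.8). The member at DLGAP2, a scaffold of the postsynaptic density, held 17.6 against 2 tags (8.80-fold, 2.18 to 76.8). None of these intervals separates one region from the next.

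The strongest signal lay 2867 bp upstream of NKX1-1, a homeobox transcription factor gene, where 2640 bp held 225.8 scaled EIR tags and 139 parental tags. Its fold of 1.62 (1.33 to 2) was the smallest of all members. A region beside MIR663B held 149.5 against 76 tags, and one in intron 4 of UNC45B, a myosin chaperone of muscle, 107 against 63. Both were thus well occupied, or well represented, in parental cells too. KCNAB2, a potassium channel beta subunit, had 63.8 against 24 tags in intron 2, PNPLA6, a phospholipase of neurons, had 55.7 against 25, and SMIM17 had 66.7 against 27.

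Among these strong regions, the ones at the pseudogenes ENSG00000278106 (77.7 against 30 tags) and ENSG00000250769 (53.5 against 27) lay 77421 and 146735 bp from an assembly gap of at least 1 Mb. At ENSG00000250769, 64.4% of the 32-base words occurred more than once in the reference, with a median of 5 copies. This share was 30.6% at PNPLA6, 25.7% at UNC45B, 18.6% at KCNAB2, 17.1% at ENSG00000278106 and 10.1% at MIR663B, where the median was 1 copy. It was 0% at NKX1-1 and SMIM17, and the mean over all members was 6.22%. Over all members, 13 of 371 (3.50%, Wilson 95% interval 2.06 to 5.90) lay within 1 Mb of such a gap, against 70 of 826 (8.47%) of the EIR-higher regions beyond 5 kb and 9 of 1589 (0.566%) of the parental-higher regions 1 to 5 kb from a TSS. They included the 3 members at KCNJ12, none of which had a repeated word. Across the 371 members 256 (69%) had no repeated 32-base word, and in 5 the median word had more than 1 copy. The part of repeats and gaps in the tags was not tested.

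The regions sat on both sides of the TSS. Relative to the direction of transcription, 196 lay downstream (52.8%, 47.8 to 57.9) and 175 upstream, and parental-higher regions at the same distance had 52.7% downstream. From 1 to 2 kb there were 78 regions downstream and 54 upstream, from 2 to 3 kb 50 and 51, from 3 to 4 kb 41 and 32, and from 4 to 5 kb 27 and 38. The median distance was 2276 bp downstream and 2639 bp upstream. The median fold hardly changed along the way, at 3.53, 3.42, 3.67 and 3.52 in the successive kilobases.

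**Figure D2:**
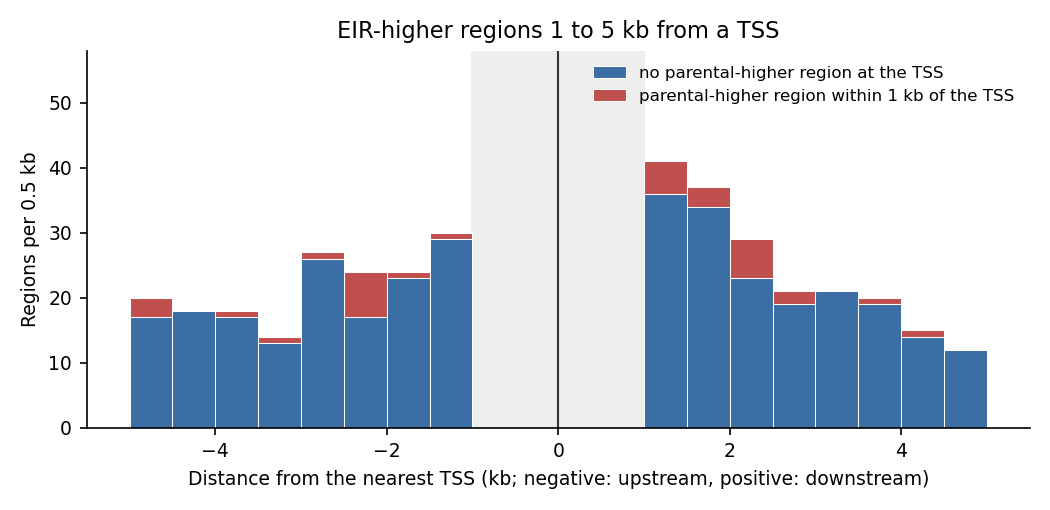
Number of EIR-higher regions in steps of 0.5 kb against their signed distance to the nearest TSS, with regions whose TSS also holds a parental-higher region in red and the excluded kilobase on either side shaded. Counts are highest between 1 and 2 kb downstream, and the red shares are highest between 2 and 3 kb.

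The nearest TSS belonged to a protein-coding gene for 219 members (59.0%) and to a lncRNA gene for 86 (23.2%). It was that of a pseudogene for 34 (9.16%) and of a miRNA gene for 17 (4.58%). For parental-higher regions at this distance the shares were 58.3%, 24.5%, 8.43% and 2.33% in the same order. Of all 211891 TSS positions, 141030 were of protein-coding genes. The nearest TSS was the start of a canonical transcript for 157 members (42.3%), against 24.7% of all TSS positions, 36.2% for parental-higher regions at this distance and 36.2% for EIR-higher regions within 1 kb. Of the 219 members beside a protein-coding gene, 51 (23.3%) were nearest to its canonical start, against 106 of 152 (69.7%) beside a non-coding gene or pseudogene. The 24.7% of all TSS positions was not split by gene type. The centre of the region lay in an intron of a canonical coding transcript for 158 members (42.6%), in a coding exon for 20 (5.39%, 3.52 to 8.18), in a UTR exon for 10 and outside all of these for 183 (49.3%). Of the parental-higher regions at this distance, 2.83% (2.12 to 3.77) were centred in a coding exon.

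At the 1 kb limit, the region 1004 bp from PLCH2 held 45.4 against 15 tags and the one 1014 bp from PPP1R16A held 16.1 against 4. The regions left out were at 995 bp from SOX15, with 17.6 against 2 tags, and at 998 bp from TDRD9, with 15.4 against 4. At the 5 kb limit, the members at LINC02028 (4987 bp) and ZBTB40 (4992 bp) held 16.9 and 16.1 scaled EIR tags and 4 parental tags each, and the regions left out, at ENSG00000236206 (5020 bp) and LRP5L (5023 bp), held 19.8 against 4 and 16.1 against 2.

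At 33 of the 371 members a parental-higher region lay within 1 kb of the very TSS beside which the EIR-higher region lay. This share of 8.89% (6.40 to 12.2) was near the background of 10.8% over all 211891 TSS positions on the chromosomes used. It depended on the definition, as did the background: it was 14.7% against 13.6% with TSSs of protein-coding genes only, 13.4% against 8.32% with the 5′ end of each gene, 5.12% against 5.64% when the region had to cover the TSS, and 23.7% against 9.90% of all genes with any TSS of the gene. The last comparison sets a share of regions, mostly beside protein-coding genes, against a share of genes of all types, so its values are not like for like. The shares that follow use the first definition, a parental-higher region within 1 kb of the nearest TSS of any transcript. This share was 7.58%, 15.8%, 4.11% and 6.15% in the successive kilobases from 1 to 5, with 3 to 16 regions in each. It was 11.8% for EIR-higher regions within 1 kb of a TSS, 7.99% beyond 5 kb and 24.3% (22.2 to 26.5) for parental-higher regions 1 to 5 kb away, the latter against its own list. At the level of protein-coding genes, a parental-higher region lay within 1 kb of any TSS for 71 of the 206 genes beside members (34.5%, 28.3 to 41.2), against 22.8% of all 19348 coding genes and 56.8% of those beside parental-higher flanking regions. The number of annotated starts per gene was not matched between these sets.

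In these 33 pairs the larger difference was mostly at the start site, in regions that were also longer, with a median of 786 bp against 500 bp. The start region held a median of 51 parental tags and 19.8 scaled EIR tags, and its flank a median of 5 and 18.3. All 4851 parental-higher regions within 1 kb of a TSS had medians of 46 and 18.3 tags and 706 bp. The start region had a median of 31.2 tags fewer in the clone, from 12.6 to 71.7, and the flank 13.8 more, from 11.1 to 33.2, and the deficit was the larger in 30 of 33 pairs. Added together, start and flank had more parental than EIR tags in 30 of 33 pairs. The exceptions were SCN4B, LINC01262 and MIR5093. Both lists were called for a difference in opposite directions, which fixes the sign of each difference and selects its size.

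**Figure D3:**
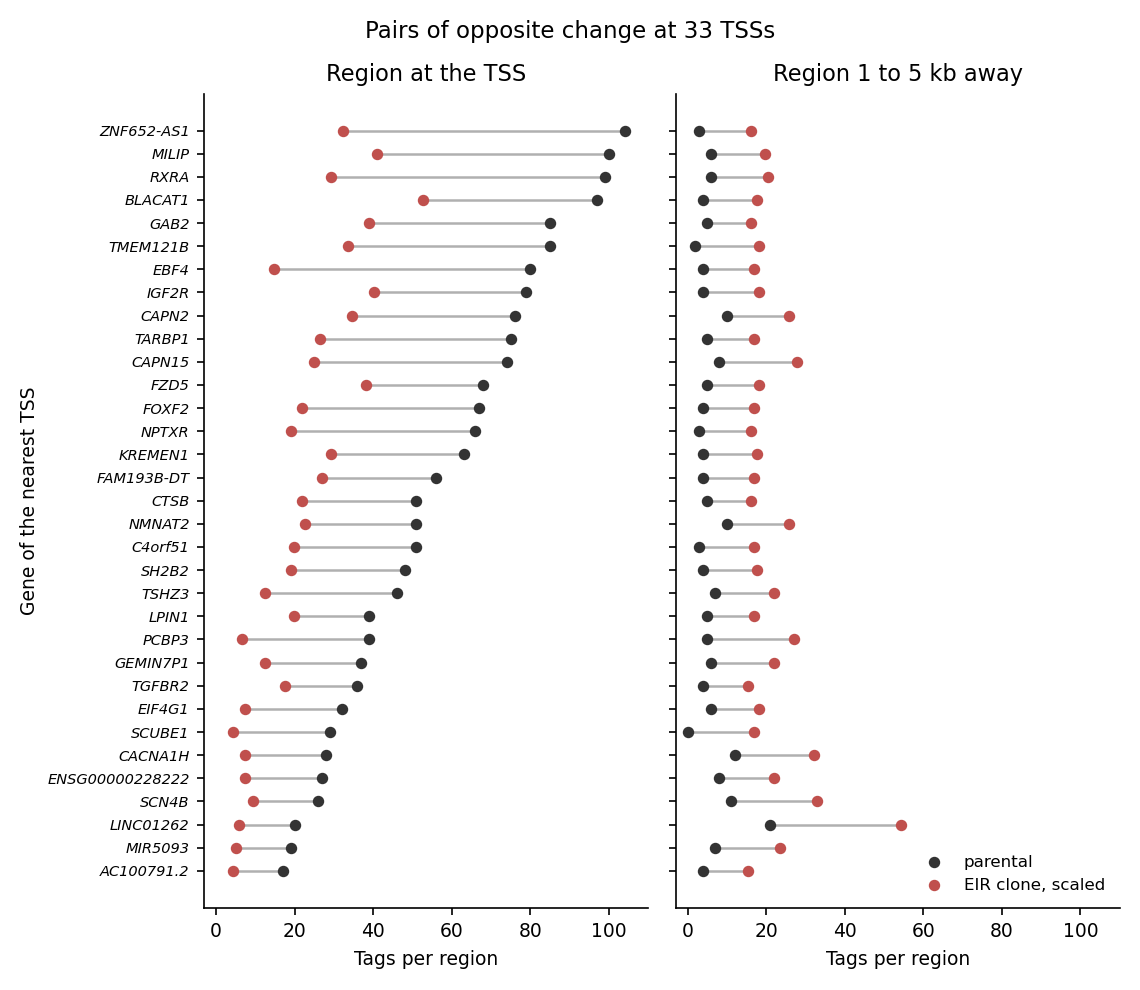
Tags per region in parental cells (black) and, scaled, in the EIR clone (red) for the region at the TSS (left) and the region 1 to 5 kb away (right), with a row for each of the 33 pairs named by the gene of the TSS. The start regions span 17 to 104 parental tags, and the flanking regions 0 to 21.

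The pair with the most parental tags at a protein-coding start was that of RXRA, the retinoid X receptor that pairs with many nuclear receptors. Its start region held 99 parental and 29.3 scaled EIR tags, and a region 1197 bp downstream in intron 1 held 6 and 20.5 (3.42-fold, 1.39 to 10.1). Only 219 bp separated the RXRA regions, the shortest gap of all pairs. GAB2, a docking adaptor of receptor tyrosine kinases, had 85 and 38.9 tags at its start and 5 and 16.1 in intron 1, 4047 bp downstream. TMEM121B had 85 and 33.7 at its start and 2 and 18.3 in its flank. EBF4, a transcription factor gene, had the largest fold at its start among the 10 pairs with the most parental tags, with 80 and 14.7 tags (5.46-fold), while a region 2140 bp upstream held 4 and 16.9.

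IGF2R, which clears IGF2 and carries lysosomal enzymes, had 79 and 40.3 tags at its start and 4 and 18.3 at 1629 bp downstream. The calpain gene CAPN2 had 76 and 34.5 at its start and 10 and 25.7 at 4799 bp upstream, and TARBP1, a tRNA methyltransferase gene, 75 and 26.4 against 5 and 16.9. The lncRNA genes ZNF652-AS1 and MILIP, and BLACAT1, annotated as protein-coding, had 104, 100 and 97 parental tags at their starts and 32.3, 41.0 and 52.8 scaled EIR tags, with 16.1, 19.8 and 17.6 scaled EIR tags in their flanks.

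Pairs with fewer tags included the Wnt receptor gene FZD5 and the Wnt antagonist receptor gene KREMEN1, with 68 and 38.1 and with 63 and 29.3 tags at their starts. The TGF-beta receptor gene TGFBR2 had 36 and 17.6. Their flanks held 18.3, 17.6 and 15.4 scaled EIR tags against 5, 4 and 4 parental tags.

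The start and its flank differed in base composition. The start regions had a median GC content of 74.1% and a CpG ratio, the observed CpGs over those expected from the C and G content, of 0.868, and the flanks 52.7% and 0.228. GC was higher at the start in 31 of 33 pairs. Members with and without such a start region had similar medians in fold (3.67 and 3.52) and in GC content (52.7% and 54.5%).

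At 15 members (4.04%, 2.47 to 6.56) another EIR-higher region lay within 1 kb of the same TSS. The background over all TSS positions was 0.732%, and the share was 5.08% for EIR-higher regions beyond 5 kb and 0.629% for parental-higher regions 1 to 5 kb away. LINC01262 also had a parental-higher region within 1 kb of that TSS, with 20 parental and 5.9 scaled EIR tags. RARB, the retinoic acid receptor beta gene, had 16.9 scaled EIR tags against 2 within 1 kb upstream of a non-canonical start. At 1039 bp downstream of that start it had 22 against 8. LHX3, a LIM homeobox gene, had 39.6 against 14 at its start and 17.6 against 5 upstream. SOX8 had 16.1 against 4 within 1 kb of the TSS, in a region that did not cover it, and 16.9 against 4 at 4815 bp downstream. KCNJ12 had 31.5 against 11 at its start, and 2 of its upstream members held 22 against 7 and 52.0 against 18.

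Clusters at single genes were few. Of 355 nearest genes, 14 had more than 1 member, 12 of them protein-coding. KCNJ12 had 3. Members flanking different starts of one gene were found at the T-type calcium channel gene CACNA1H (32.3 against 12 tags in intron 2 and 41.0 against 11 in intron 26), at BRSK2 (25.7 against 9 in exon 10 and 24.2 against 1 in intron 12), at the growth factor gene BMP7 (26.4 against 10 and 19.1 against 5) and at the chromatin and transcription factor gene PRDM16 (35.2 against 11 in intron 1 and 16.1 against 5 in intron 14). The remaining coding genes were CASZ1, EMP1, GALNT9, MYRF, PADI1, PCSK6 and TPD52L1, each with members of 15.4 to 20.5 scaled EIR tags and 3 to 7 parental tags. Another EIR-higher region lay within 10 kb of 45 members (12.1%) and a parental-higher region within 10 kb of 79 (21.3%). These shares were 13.8% and 25.6% for EIR-higher regions within 1 kb of a TSS, 15.5% and 9.08% for those beyond 5 kb, and 3.27% and 54.1% for parental-higher regions 1 to 5 kb away.

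Gene lists were compared with all coding genes, of which 206 of 19348 (1.06%) had a member beside them. The counts below are a description. Gene length and the number of starts were not matched.

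Ion channels and receptors of excitable cells had the largest share of the 11 lists, 10 of 250 genes (4.00%), with 13 members. The same list had 9 genes (3.6%) with a parental-higher region at this distance, where all coding genes had 4.02%. That parental-higher share was 7.66% for transcription factor families, 5.02% for lipid metabolism, 13.2% for Wnt, TGF-beta and Notch signalling, 7.01% for growth factor and MAPK signalling and 6.25% for the BCL2 list. The members included those at the calcium channel genes CACNA1H and CACNA2D4, the potassium channel genes KCNJ12, KCNAB2, KCNIP1, KCNK9 and KCNN3, the pacemaker channel gene HCN3 and the sodium channel subunit gene SCN4B. Apart from KCNJ12, CACNA1H, KCNAB2 and SCN4B (33 against 11 tags), these held 16.1 to 19.1 scaled tags against 3 to 4.

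Lipid metabolism had 8 of 219 genes (3.65%). Besides FADS2 and PNPLA6 they included FASN, the fatty acid synthase, with 16.1 against 4 tags in intron 15, CERS4, a ceramide synthase, with 16.9 against 2, and ACOT11, LPIN1 and PLIN5, each with 16.9 against 5. The region of FASN lay inside the gene body, 2765 bp upstream of a non-canonical start.

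Transcription factor families had 15 of 522 genes (2.87%) with 16 members. Nuclear receptors were represented by RXRA, RARB and NR1H2, the liver X receptor beta (16.1 against 5), and homeobox genes by NKX1-1, LHX3, HOXA9 (28.6 against 10 in coding exon 2) and HOXB3 (17.6 against 5). PRDM11, NFATC1, NFIC, SOX8, FOXF2, EBF4, PRDM16 and ZBTB40 made up the rest.

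The BCL2 and apoptosis list had 2 of 80 genes (2.5%). BMF, a BH3-only protein that binds and inhibits BCL2, had 16.1 against 5 tags (3.23-fold, 1.19 to 10.9) in intron 4, 1853 bp downstream of a start, and TNFSF8, the CD30 ligand, had 16.9 against 5. Of 61 SWI/SNF and Polycomb genes 1 (1.64%) had a member, near the 1.06% of all coding genes. It was BRD9, a subunit of the non-canonical BAF complex, with 20.5 against 6 tags (3.42-fold, 1.39 to 10.1). That region lay 2654 bp downstream of the start of a non-canonical BRD9 transcript, with its centre outside all canonical coding transcripts. Growth factor and MAPK signalling had 5 of 271 genes (1.85%), among them AKT1 and IGF1R with 16.9 against 5 tags each. Wnt, TGF-beta and Notch signalling had 3 of 159 (1.89%), at BMP7, FZD5 and TGFBR2. Extracellular matrix and adhesion had 4 of 311 (1.29%), with PCDH1 (38.9 against 13) the strongest. Of 527 ZNF genes 1 (ZNF23) had a member, or 0.19%, and none of 28 genes marking clear cell carcinoma and the Mullerian lineage had one. With 1.06% of all coding genes as background, a list of 28 is too short to tell none from that share. A parental-higher region at this distance lay beside 3 of these 28 genes (10.7%). That share was 4.92% for SWI/SNF and Polycomb genes and 4.02% for all coding genes.

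In base composition the members lay between the EIR-higher regions nearer to and farther from a TSS. Their GC content had a median of 54.3% (order-statistic 95% interval 52.9 to 55.4), against 60.0% within 1 kb and 49.5% beyond 5 kb. Parental-higher regions at the same distance had 44.7% (44.3 to 45.1), and 43.7% when weighted to the tags of the members. The difference was also present in each of 3 classes of tags: 55.3% and 43.1% at 16 to 18 tags, 52.5% and 44.7% at 18 to 22, and 53.9% and 45.2% above. Below 16 tags there were 29 members at 54.9% and 7 parental-higher regions.

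Few members resembled CpG islands. The CpG ratio of the members had a median of 0.255 and that of the parental-higher flanking regions 0.224. A GC content over 50% together with a ratio over 0.6, the usual limits of a CpG island, was met by 20 members (5.39%, 3.52 to 8.18), by 7.87% of the parental-higher flanking regions and by 32.8% of the EIR-higher regions within 1 kb of a TSS.

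**Figure D4:**
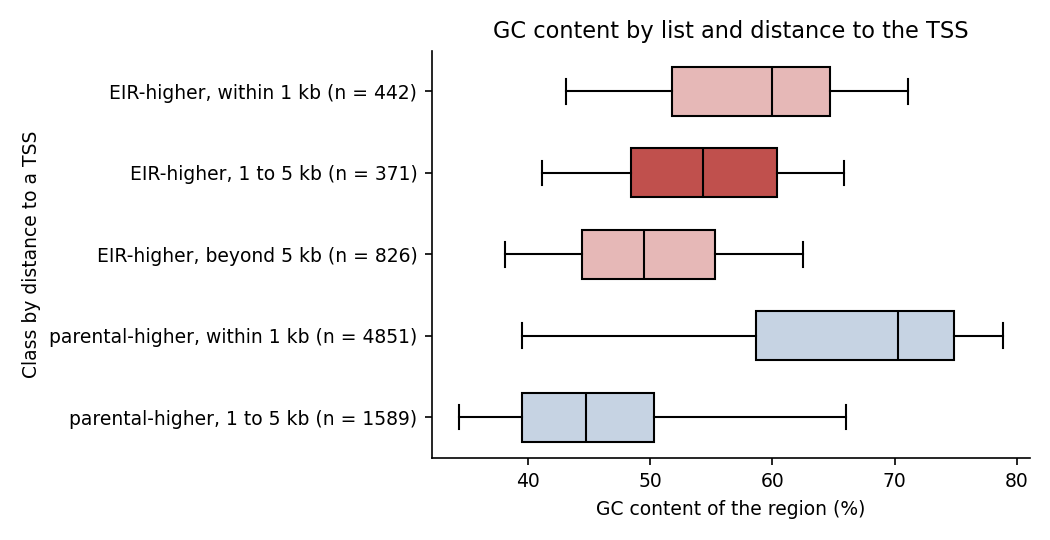
GC content of the regions by list and distance to a TSS, with boxes from the lower to the upper quartile, a line at the median and whiskers at the 5th and 95th percentiles. The median of the EIR-higher regions is 60.0%, 54.3% and 49.5% from near to far, and that of the parental-higher regions 70.3% within 1 kb and 44.7% from 1 to 5 kb.

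The members were also placed toward chromosome ends. Of the 371, 110 (29.6%, 25.2 to 34.5) lay within 5 Mb of the end of a chromosome, where 12.4% of all TSS positions lie. The share was 24.4% for EIR-higher regions within 1 kb of a TSS, 18.8% for those beyond 5 kb, and 9.44% (8.10 to 11) for parental-higher regions 1 to 5 kb away, or 10.3% at the tags of the members. Members near an end had a median GC content of 61.1% and the other 261 had 51.5%, against 51.6% and 44.3% for parental-higher flanking regions. The GC difference between the lists was thus present both near the ends and away from them. The median fold of the members was 3.6 near the ends and 3.52 elsewhere.

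The number of members per 1000 TSS positions was 1.75 over all chromosomes used. It was highest on chromosomes 20 (3.33, 17 members), 16 (2.71, 28) and 9 (2.69, 21) and lowest on chromosomes X (0.424, 3), 13 (0.734, 3) and 5 (0.948, 10). Parental-higher flanking regions gave 7.5 per 1000 over all chromosomes, and 7.65, 4.84 and 9.61 on chromosomes 20, 16 and 9. Differences in copy number between the lines were not measured, and their part in the counts was not tested.

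Of the short motifs searched in the central 300 bases, a GC-rich and an AT-rich one differed most between the lists. The GC box (GGGCGG, the core of SP and KLF factor sites) was present in 61 members (16.4%, 13.0 to 20.6), in 12% (10.5 to 13.7) of parental-higher flanking regions, or 6.46% at the tags of the members, and in 29.4% of EIR-higher regions within 1 kb. The GATA motif (AGATAA) was present in 24 members (6.47%, 4.39 to 9.44) and in 16.7% (15.0 to 18.7) of parental-higher flanking regions, or 17.4% at matched tags. RUNX (AACCACA) was in 3.50% (2.06 to 5.90) of members and in 5.73% (4.69 to 6.98) of parental-higher flanking regions, or 7.38% at matched tags. Motifs were searched on both strands, the GC-rich one contains a CpG and the GATA one is AT-rich.

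The intervals of both lists overlapped for the GC box, for RUNX and for the motifs that follow, and lay apart for GATA. The AP-1 pattern TGANTCA takes any middle base, and so holds more than the sites bound by FOS and JUN dimers. It was in 35 members (9.43%, 6.86 to 12.8) and in 11.5% of the parental-higher flanking regions, or 9.49% at matched tags. TEAD (GGAATG, the effectors of the Hippo pathway) was in 60 members (16.2%) and in 15.1%, or 16.6% at matched tags. ETS (CCGGAAG) was in 9 members (2.43%) and 1.64%, the CTCF core in 8 (2.16%) and 1.01%, and the HNF1 motif in 1 and 0.881%. A match is a run of letters and not a bound site.

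**Figure D5:**
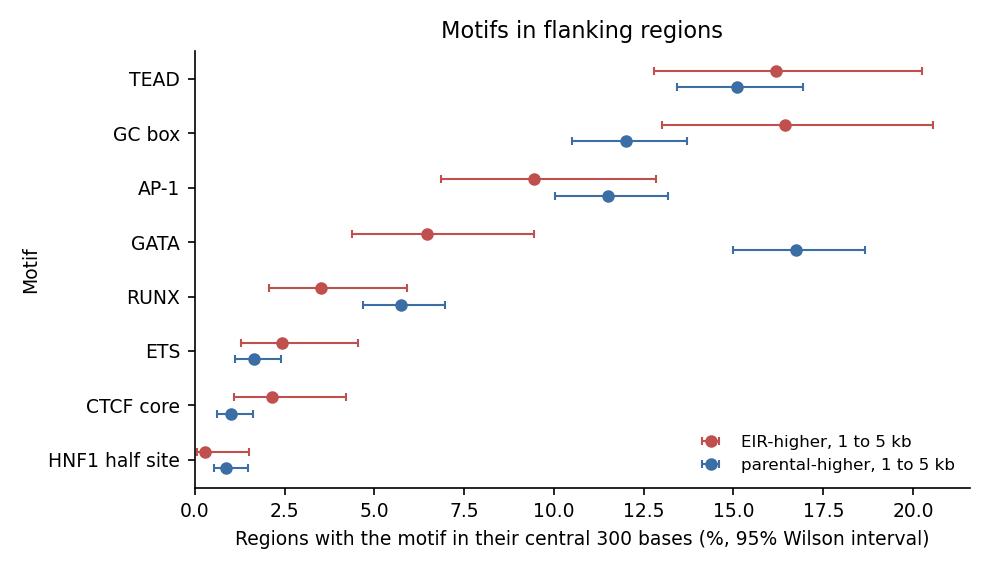
Share of regions with each motif in their central 300 bases for EIR-higher (red) and parental-higher (blue) regions 1 to 5 kb from a TSS, with Wilson 95% intervals that treat regions as independent draws. The GATA motif is at 6.47% and 16.7%, AP-1 at 9.43% and 11.5%, TEAD at 16.2% and 15.1% and the GC box at 16.4% and 12%.

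The AP-1 matches of the 4 members with the most scaled EIR tags among those with a match on chromosomes other than 8 are shown with 12 bases on either side, the motif in capitals, from the plus strand of GRCh37.
BMP7-AS1, chr20:55787733-55787763: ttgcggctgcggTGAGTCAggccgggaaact
CAPN2, chr1:223895050-223895080: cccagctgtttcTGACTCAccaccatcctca
GSE1, chr16:85648787-85648817: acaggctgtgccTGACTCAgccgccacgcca
KU-MEL-3, chr6:4607293-4607323: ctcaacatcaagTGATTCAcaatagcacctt
The first lies 1661 bp upstream of BMP7-AS1 in intron 2 of BMP7, with 33.7 against 12 tags, the CAPN2 match in a flank whose start site held a parental-higher region, with 25.7 against 10, and those of GSE1 and KU-MEL-3 in regions with 24.2 against 7 and 22 against 8.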

How the data were processed

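FLAG-SMARCA4 ChIP-seq was deposited for 1 library of parental TOV21G cells and 1 of EIR clone 3. Per the labels and the Methods, the authors aligned 75 bp single-end reads to hg19 with Bowtie 0.12.9 and called regions with HOMER in histone style, each library serving as the control of the other, at an FDR of 5%. The deposited lists give parental tag counts, a scaled EIR tag signal, a fold (ratio) with 0.5 of a tag in place of 0, and a Poisson p-value. The authors' score, clonal fold and normalized signal entered no result beyond the library totals, taken from counts and signal per 10 M tags.

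Regions were joined to every TSS of GENCODE release 44 mapped to GRCh37, and sequence was read from GRCh37. Of distinct scaled values of at least 5, 100% were whole multiples of 0.733 within 0.05. Chromosomes 10 and Y, with 465 EIR-higher regions, were not used. Wilson intervals treat regions as independent draws, and fold intervals cover counting error only. No difference was tested. Some genes and 1 gene list are not reported here. The members, the lists and the rule for naming were chosen with earlier results of these data known. The genes named are the 10 members with the largest fold, the 10 with the most EIR tags, the 10 pairs with the most parental tags at the TSS, list genes, genes with several members and the regions at the distance limits, and others in these groups were chosen after their values were seen. The features of repeated 32-base words (the reference marks no repeats), chromosome ends, chromosome counts, gene-level shares and the shares of TSS positions beside alternative definitions were added after seeing the data. On simulated data the TSS join matched an exhaustive search for 2000 of 2000 regions, and 96.8% of the fold intervals held the true fold. The simulated regions were not chosen for their difference as the members were, so the coverage for chosen regions was not simulated. The work used pysam 0.24.0, scipy 1.17.1, matplotlib 3.10.9, pandas 2.3.3 and numpy 2.4.6 under Python 3.11.15.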

Additional observations from a re-analysis of the deposited data

How the results depend on the processing

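Of 54 alternative settings over 5 summary values, 38 left the value within its interval, or a count within 1.5 times. The number of regions was 106 at a p-value of at most 1e-06, 138 at a fold of at least 4, 233 between 1 and 3 kb, and 36 with the EIR library scaled 1.5 times lower. The share downstream was 45.7% at a fold of at least 4 and 47.2% under the lower scaling, so that its side of 50% was not stable. The share with a parental-higher region at the TSS was 14.7% with TSSs of protein-coding genes only, 13.4% with the 5′ end of each gene only, 5.12% when the region had to cover the TSS, and 23.7% with any TSS of the gene, a setting chosen after seeing the data. The median fold was 5.38 at the stricter p-value, 5.04 at a fold of at least 4 and 5.62 under the lower scaling. The median GC content was 55.7% at a fold of at least 4, 55.7% with the 5′ ends and 56.7% under the lower scaling. Stricter limits on p-value, fold or scaling keep regions by the tags themselves, and the causes of the other changes were not tested. No paired analysis was possible because each condition had 1 library, and none could be left out. Regions that were never called cannot be gained under any setting, and at a median of 5 parental tags counting error is wide.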
